A study of Mus musculus with 6 samples.

Results

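The genes described here are 8 regulators of luminal mammary epithelium: the transcription factors Gata3, Foxa1, Elf3, Ehf and Spdef, the oestrogen receptor gene Esr1, the progesterone receptor gene Pgr, and Cited1, a transcriptional coactivator of oestrogen receptor-positive cells. They were chosen by name, as the gene rows whose symbol matched, and 8 of 8 were found among the 55487 gene rows. The libraries were made from mammary tumours of MMTV-PyMT mice, in which the mouse mammary tumour virus promoter drives the polyoma middle T oncoprotein in mammary epithelium. In the agonist group 3 libraries came from mice given DMHCA, a sterol-like LXR agonist (LXR are the liver X receptors); in the vehicle group 3 libraries came from mice given vehicle. Both were given by mouth in gel cups from an age of 6 weeks, and all mice carried the transgene. The age at which the tumours were taken is not given in the sources used here, nor is it said whether each library stands for another mouse, so a p-value here weighs a difference against the variation among 6 libraries only, some of which may be technical. The titles of a group share 1 code, whereas the deposited tables carry a different code for each library, and what the codes stand for is not explained.

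Luminal cells of the mammary duct fall into hormone-sensing cells, which carry the oestrogen and progesterone receptors, and secretory precursor cells, which largely lack them. GATA3 is needed for luminal cells to form and persist. FOXA1 opens chromatin for the oestrogen receptor, which in turn activates the progesterone receptor gene. ELF3, EHF and SPDEF belong to the epithelial branch of the ETS family of DNA-binding proteins. LXR is a nuclear receptor that binds oxysterols and acts as a dimer with the retinoid X receptor.

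The regions just upstream of the start sites are shown for the member whose groups did not overlap in counts (Elf3), for an abundant member (Gata3), for the pair with the lowest levels (Foxa1 and Pgr), and for the start site of Cited1 with the most motif matches. Of the 8 genes, 7 had an entry in the RefSeq promoter table (GRCm38.p6), with 10 start sites between them, and Ehf had none. Each line gives the 250 bases before a RefSeq start site, read 5′ to 3′ on the strand of the gene, with the motif matches found in capitals.
Elf3: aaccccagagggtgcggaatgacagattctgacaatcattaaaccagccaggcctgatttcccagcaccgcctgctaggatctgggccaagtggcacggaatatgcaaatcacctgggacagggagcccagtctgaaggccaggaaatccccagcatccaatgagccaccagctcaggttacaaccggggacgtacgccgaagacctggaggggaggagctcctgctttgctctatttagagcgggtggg
Gata3: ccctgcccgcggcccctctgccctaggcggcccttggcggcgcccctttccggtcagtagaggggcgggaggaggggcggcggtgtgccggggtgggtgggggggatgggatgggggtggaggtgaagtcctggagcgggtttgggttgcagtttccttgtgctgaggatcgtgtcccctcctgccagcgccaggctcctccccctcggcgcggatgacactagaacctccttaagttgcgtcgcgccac
Foxa1: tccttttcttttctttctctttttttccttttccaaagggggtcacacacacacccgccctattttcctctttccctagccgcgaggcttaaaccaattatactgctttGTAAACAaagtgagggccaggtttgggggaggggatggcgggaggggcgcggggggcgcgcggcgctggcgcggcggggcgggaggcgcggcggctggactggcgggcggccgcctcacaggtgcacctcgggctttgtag
Pgr: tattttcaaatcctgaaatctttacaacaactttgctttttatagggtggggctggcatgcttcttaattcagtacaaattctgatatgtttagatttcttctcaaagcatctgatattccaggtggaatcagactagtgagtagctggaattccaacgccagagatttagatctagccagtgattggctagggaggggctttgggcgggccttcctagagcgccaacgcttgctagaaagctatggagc
Cited1: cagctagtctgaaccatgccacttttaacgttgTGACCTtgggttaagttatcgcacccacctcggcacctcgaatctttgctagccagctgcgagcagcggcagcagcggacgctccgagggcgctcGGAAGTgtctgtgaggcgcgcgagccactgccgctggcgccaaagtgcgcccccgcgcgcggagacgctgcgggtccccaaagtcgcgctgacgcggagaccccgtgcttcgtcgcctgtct
The windows lie at chr1:135258473-135258722 (minus strand) for Elf3, chr2:9878601-9878850 (minus) for Gata3, chr12:57546112-57546361 (minus) for Foxa1, chr9:8899583-8899832 (plus) for Pgr and chrX:102250777-102251026 (minus) for Cited1.

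The letters searched, on both strands, were TGTTTAC for forkhead factors, AGATAA or TGATAA for GATA factors, GGAAGT for ETS factors, AGGTCA for a nuclear receptor half-site, GGTCA and TGACC with 3 bases between them for an oestrogen response element, AGGTCA repeated with 4 bases between for the LXR direct repeat, which contains the half-site, and GNACA and TGTNC with 3 bases between for a progesterone response element. Foxa1, itself a forkhead gene, had the forkhead letters on the opposite strand at positions -141 to -135 from its start. Of all 32851 promoter windows of that length, 3.17% held them. The Cited1 window had an ETS match at positions -122 to -117 and a half-site on the opposite strand at -217 to -212, letters held by 19.7% and 14% of all windows. The other 8 windows had no match to any of the letters, which says only that these letters are not in those 250 bases. GATA letters were in 16.6% of all windows, and the full oestrogen, progesterone and LXR elements in 0.0639%, 0.387% and 0.0152%. Base composition differed widely among the windows, with 70% G or C for Gata3, 62% for Foxa1, 57.2% for Elf3 and 43.6% for Pgr, against a median of 52.4% over all windows.

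Each library held between 36577451 and 42595799 expected counts, and 3 counts correspond to between 0.0704 and 0.082 CPM, the count scaled to a fixed library total. The 9 pan-epithelial and luminal markers were present throughout. Their sums were 2874 to 3266 TPM (a level scaled to transcript length and to the library) with agonist and 3249 to 3463 with vehicle. Epcam, the general epithelial marker, had between 537 and 742 TPM. The libraries differed far more in other cells. The 9 fibroblast markers summed to 1020 to 1454 TPM with agonist and to 177 (replicate 3), 704 (replicate 1) and 1708 (replicate 2) with vehicle. The 6 adipocyte markers summed to 113 to 782 TPM with agonist and 45.3 to 1081 with vehicle, and the 10 basal markers to 136 to 350 and 47.9 to 156. Salivary gland markers summed to 8.28, 791 and 198.5 TPM in agonist replicates 1, 2 and 3 and to 6.15 to 58.0 with vehicle, with the salivary mucin genes Muc19 and Smgc at 0 throughout.

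The 8 genes spanned almost 3 orders of magnitude in level, and the hormone-sensing genes lay at the bottom. Mean levels over the 6 libraries were 172 TPM for Ehf, 74.3 for Gata3, 15.4 for Elf3, 13.5 for Spdef, 1.46 for Esr1, 0.828 for Cited1, 0.272 for Foxa1 and 0.177 for Pgr. Ehf exceeded a median of 95.7% of the tested genes in a library and Gata3 90.2%, whereas Esr1 exceeded 25.2%, Cited1 18.5%, Foxa1 7.48% and Pgr 3.98%. Elf3 exceeded 62.5% and Spdef 54.8%. Ehf and Gata3 were thus well expressed and Elf3 and Spdef nearer the middle, while Pgr and Foxa1 were close to the lower end of what was tested. Ehf was above Gata3 in 6 of 6 libraries, but by a ratio of only 1.03 in the closest, and Gata3 was above Elf3 in 6 of 6, with ranges that did not overlap. Elf3 and Spdef could not be ordered, since Elf3 was higher in 4 of 6 libraries. Spdef was at least 3.35 times Esr1 in every library. Below that, the ranges of Esr1 and Cited1, of Cited1 and Foxa1, and of Foxa1 and Pgr overlapped. Within a library the order was clearer, with Cited1 at least 2.14 times Foxa1 in 6 of 6 libraries and Foxa1 at least 1.07 times Pgr in 6 of 6, while Esr1 was above Cited1 in 5 of 6.

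**Figure D1:**
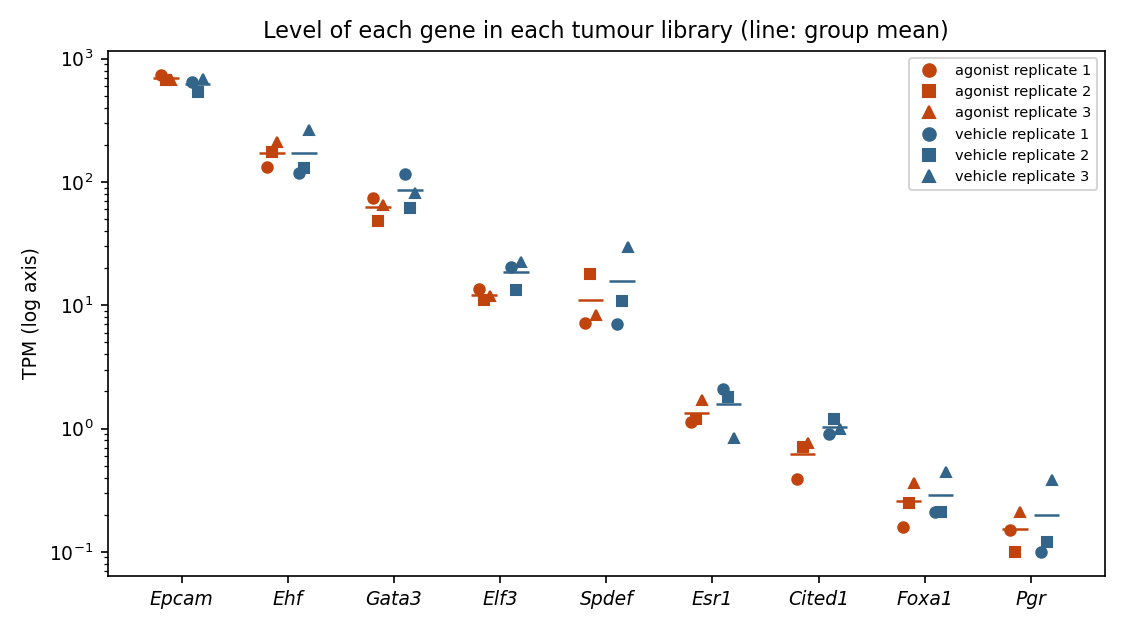
Level in TPM (log axis) of Epcam and the 8 genes in each of the 6 libraries, coloured by group and shaped by replicate, with a line at each group mean. Ehf and Gata3 lie between 48.5 and 266 TPM, and Foxa1 and Pgr between 0.10 and 0.44 TPM.

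Elf5, the ETS factor of secretory precursor cells, was named after its values were seen: it had between 212 and 399 TPM, above Ehf in its mean (320 TPM). Kit, a receptor of luminal precursor cells, had between 75.8 and 227 TPM. The levels of genes that respond to oestrogen and progesterone differed widely, and those named here with TPM alone were also picked after their values were seen. The highest was Ctsd, the lysosomal protease gene cathepsin D, with 526 to 607 TPM, followed by Ccnd1, which encodes cyclin D1, with 36.2 to 99.8 TPM and Igfbp4, which encodes a binding protein of insulin-like growth factors, with 19.2 to 89.9 TPM. Areg, an epidermal growth factor-like ligand, had 0.30 to 2.2 TPM, Wnt4, a signal to neighbouring cells, 0.10 to 0.50 TPM, and Greb1, an oestrogen-induced gene, 0.04 to 1.1 TPM. Tnfsf11, which encodes the cytokine RANKL, had at most 0.25 TPM and was listed at 0 in vehicle replicate 3. Prlr, the prolactin receptor gene, had 10.6 to 15.4 TPM.

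The comparison of agonist with vehicle tumours asks how LXR activation bears on the tumours, and here on the luminal programme. None of the 8 genes passed the test over all 17396 genes (edgeR adjusted p of 0.99 for each), and no gene in the whole comparison did (0% called). All 8 had a lower estimate with agonist, with a median log2 fold change of -0.44 against -0.0049 over all tested genes, 50.7% of which had a lower and 49.3% a higher estimate. At an unadjusted p under 0.05 there was 1 of the 8, Elf3, where 3.09% of all tested genes (538) were, 2.37% lower and 0.719% higher. With other tools Elf3 was again the 1 of 8 at an unadjusted p under 0.05, beside 2.66% of genes by DESeq2 and 6.96% by limma-voom, and no member was called by DESeq2, which called 0.0172% of genes, or by limma-voom, which called 0%. The excess of lower genes depended on the processing. Of genes at an unadjusted p under 0.05 by edgeR, 76.8% were lower with TMM and 75.4% with DESeq2 size factors. The share was 64.5% with upper-quartile factors and 38.8% with 5 epithelial genes as the reference. It was 36.5% by limma-trend on TPM, where the test differs as well as the scale. Elf3 was lower in each of these fits. The lower direction of the set rested on vehicle replicate 3, and without it 4 genes were lower and 4 higher, with a median of -0.056. That library had the highest TPM of 5 of the 8 genes and the lowest fibroblast and adipocyte sums of the 6, and the part of those cells in the result was not tested. In bulk tumour RNA, fewer cells of a type and less RNA per cell cannot be told apart.

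**Figure D2:**
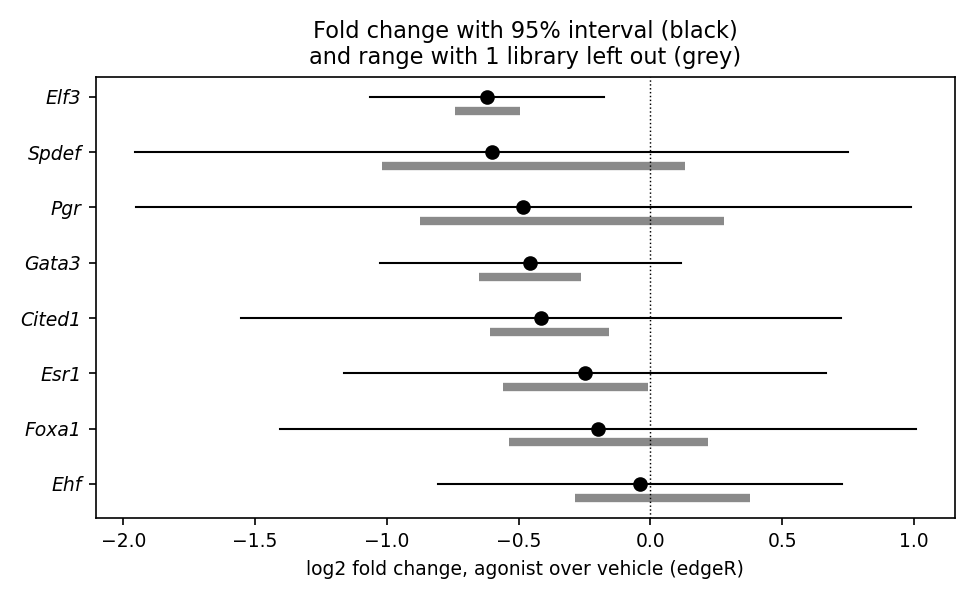
Log2 fold change of each gene, agonist over vehicle, from edgeR (points) with its 95% interval (black lines), and the range when 1 library at a time is left out (grey bars). Elf3 is at -0.62 with an interval from -1.07 to -0.17, and the intervals of the other 7 include 0.

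Elf3, a factor of epithelial differentiation, lies on chromosome 1 (135253575 to 135258568, minus strand). It had 21.8, 16.4 and 18.4 CPM in agonist replicates 1, 2 and 3 and 29.1, 24.0 and 33.7 CPM in vehicle replicates 1, 2 and 3. Each agonist library was below each vehicle library in CPM, with agonist replicate 1 and vehicle replicate 2 the closest pair. In TPM this pair crossed, at 13.6 with agonist and 13.3 with vehicle, so the groups overlapped on that scale. Groups that did not overlap were found for 7.24% of tested genes in CPM, 4.22% with agonist lower and 3.02% with agonist higher, and in TPM for 1.45% with agonist lower and 6.32% with agonist higher. Mean Elf3 was 18.8 ± 2.75 CPM in agonist tumours and 28.9 ± 4.89 CPM in vehicle tumours (SD, n = 3 each). The log2 fold change was -0.62 ± 0.19 (SE; 95% interval -1.07 to -0.17), or 0.65-fold (0.478 to 0.886), with an edgeR unadjusted p of 0.0125 and an adjusted p of 0.99. A p this small or smaller was found for 0.546% of the tested genes. With 1 library left out the log2 fold change of Elf3 ran from -0.74 (vehicle replicate 2) to -0.50 (vehicle replicate 3), and the smallest adjusted p in any of these fits was 0.281. An antisense transcript, Gm26642, shares 162 exonic bases with Elf3 on the opposite strand, and it had 68.4 to 155 expected counts a library against 670 to 1357 for Elf3. Without a stated strand setting, reads in the shared bases cannot be told apart.

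Gata3, on chromosome 2 (9857078 to 9890034, minus strand), had the second highest level of the set. It had 209, 119 and 174 CPM in the agonist libraries and 286, 193 and 209 CPM in the vehicle libraries. Agonist replicate 1 lay within the vehicle range, so the groups overlapped, and the extremes were agonist replicate 2 and vehicle replicate 1. The means were 167 ± 45.2 and 230 ± 49.6 CPM (SD, n = 3 each). Its log2 fold change was -0.46 ± 0.25 (SE; 95% interval -1.03 to 0.12), with an edgeR adjusted p of 0.99 and an unadjusted p of 0.103. Leaving out agonist replicate 2 gave -0.26, leaving out vehicle replicate 1 gave -0.27, and leaving out agonist replicate 1 gave -0.65. Of the genes that overlap Gata3, 9230102O04Rik shares 77 exonic bases on the same strand and had 25.1 to 90.0 expected counts, and Gm13256 shares 155 on the opposite strand and had 1 to 7 counts, against 4878 to 12549 for Gata3.

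Ehf, on chromosome 2 (103263433 to 103303278, minus strand), had the highest level of the set and the smallest difference between groups. It had 526, 635 and 819 CPM with agonist and 426, 593 and 1016 CPM with vehicle. The vehicle libraries thus held both the lowest and the highest value, and all agonist libraries fell between them. The log2 fold change was -0.04 ± 0.33 (SE; 95% interval -0.81 to 0.73), an interval that includes changes of 0.572-fold to 1.66-fold. It turned to 0.38 without vehicle replicate 3 and 0.10 without agonist replicate 1.

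Spdef, an ETS factor known from secretory epithelia such as goblet cells, lies on chromosome 17 (27714352 to 27728955, minus strand) and varied widely within both groups. It had 10.5, 22.0 and 11.6 CPM with agonist and 8.89, 18.1 and 39.9 CPM with vehicle. Vehicle replicate 3 stood above the others, and agonist replicate 2 was the highest of its group. The salivary marker sum was 791 TPM in agonist replicate 2 and 6.15 TPM in vehicle replicate 3, the highest and the lowest of the 6, and the part of salivary tissue in Spdef was not tested. The log2 fold change was -0.60 ± 0.57 (SE; 95% interval -1.96 to 0.75), and it moved to 0.13 when vehicle replicate 3 was left out, to -1.02 when agonist replicate 2 was, and to -0.98 when vehicle replicate 1 was.

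**Figure D3:**
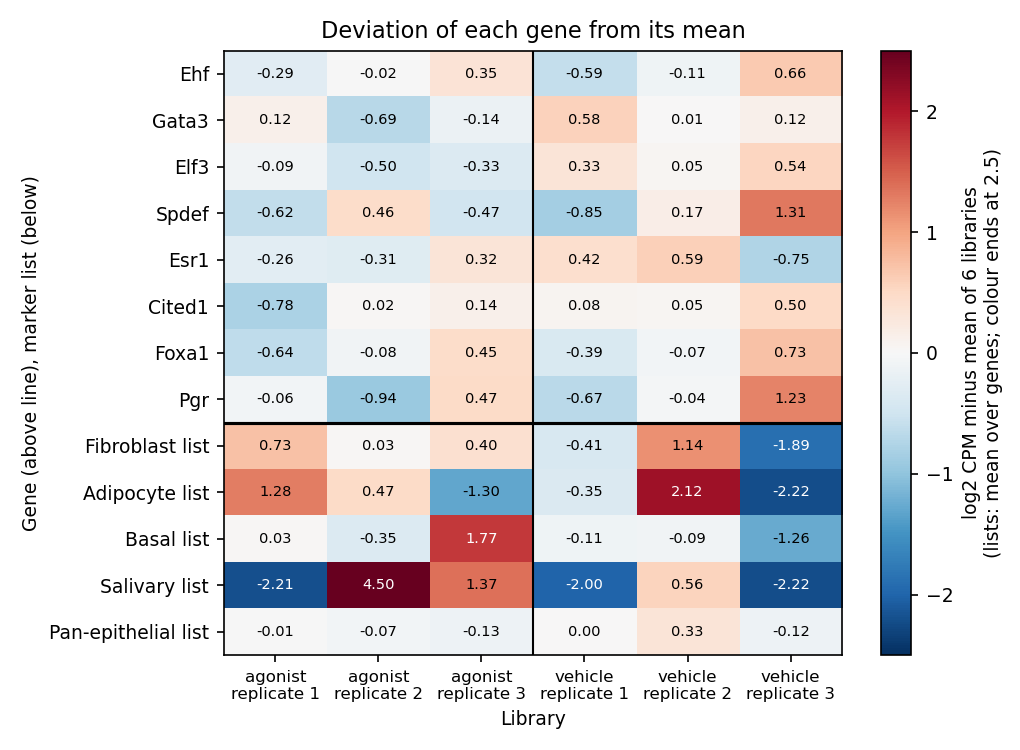
Deviation of each gene (log2 CPM minus its mean over the 6 libraries), with the mean deviation of 5 marker lists below the line, where colour ends at 2.5. Vehicle replicate 3 is the highest library for Ehf, Elf3, Spdef, Cited1, Foxa1 and Pgr and the lowest for Esr1 and for the fibroblast list.

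Esr1, the oestrogen receptor gene on chromosome 10 (4611593 to 5005614, plus strand), was low but measured with 178 to 439 expected counts a library. It had 6.23, 6.03 and 9.38 CPM with agonist and 10.01, 11.3 and 4.43 CPM with vehicle. The lowest value was that of vehicle replicate 3, the library in which 5 of the other 7 genes had their highest TPM. The highest was that of vehicle replicate 2 in CPM, but that of vehicle replicate 1 in TPM (2.1 against 1.79 in replicate 2). Vehicle replicates 3 and 2 had the lowest and the highest fibroblast and adipocyte sums, and the part of those cells in Esr1 was not tested. The log2 fold change was -0.25 ± 0.40 (SE; 95% interval -1.16 to 0.67), with -0.56 without vehicle replicate 3 and -0.0097 without vehicle replicate 2.

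Pgr, the progesterone receptor gene on chromosome 9 (8899833 to 8968611, plus strand), rested on 33, 19 and 55 expected counts in the agonist libraries and 25, 34 and 91 in the vehicle libraries. In CPM these were 0.894, 0.464 and 1.31 against 0.570, 0.905 and 2.26. Vehicle replicate 3 was again the highest. The log2 fold change was -0.48 ± 0.63 (SE; 95% interval -1.95 to 0.99) and 0.28 without vehicle replicate 3, so at this depth a change between 0.259-fold and 1.98-fold was not excluded by the interval.

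Foxa1, on chromosome 12 (57540628 to 57546916, minus strand), had 16, 27 and 41 expected counts with agonist and 23, 25 and 48 with vehicle. This gave 0.434, 0.659 and 0.979 CPM against 0.524, 0.666 and 1.19. Each group spanned more than a doubling and the ranges overlapped, that of vehicle lying somewhat higher at both ends. The log2 fold change was -0.20 ± 0.52 (SE; 95% interval -1.40 to 1.01), with 0.22 without vehicle replicate 3 and -0.54 without agonist replicate 3.

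Cited1, on chromosome X (102247381 to 102252181, minus strand), had the fewest reads, with 8, 17 and 19 expected counts in the agonist libraries and 19, 16 and 24 in the vehicle libraries. It passed the low-count filter with 5 of 6 libraries at the cutoff of 0.247 CPM, the exception being agonist replicate 1, while the other 7 genes passed in 6 of 6. Its log2 fold change was -0.42 ± 0.49 (SE; 95% interval -1.55 to 0.72), and -0.16 without agonist replicate 1. In TPM all agonist values (0.39, 0.71 and 0.77) were below all vehicle values (0.90, 1.2 and 1.0), but in CPM agonist replicate 3 (0.454) was above vehicle replicates 1 (0.433) and 2 (0.426). TPM divides by an effective transcript length, which the authors' RSEM run estimated for Cited1 as 318 bases in vehicle replicate 2 and as 550 to 648 bases in the other libraries.

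The length that RSEM gives a gene is weighted by the estimated abundance of its isoforms, so its value by library describes the isoform mixture. It moved little for the members with the highest mean levels. Between the shortest and the longest library it differed by 1.25% for Ehf, 1.96% for Elf3, 5.07% for Gata3 and 6.63% for Spdef. Esr1 had 5961 to 6073 bases with agonist and 5763 to 6023 with vehicle, within annotated transcripts of 719 to 6339 bases. Among the members with few counts, Pgr ranged further, by 25.2% (5504 bases in agonist replicate 2, which had 19 counts, to 6889 in vehicle replicate 2). Cited1 ranged by 63.4%. Foxa1, also with few counts, did not move, and all libraries were assigned to its transcript of 3191 bases.

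Ratios within a library do not depend on how libraries are scaled, and Epcam served as the epithelial reference. Relative to Epcam, Elf3 lay at log2 values of -5.77, -5.91 and -5.82 with agonist and -4.99, -5.33 and -4.94 with vehicle. The agonist libraries spread little (SD 0.073) and all lay below the vehicle libraries, with a difference of -0.74. Gata3 relative to Epcam lay at -3.31, -3.78 and -3.36 against -2.48, -3.14 and -3.09, a difference of -0.58, again with groups apart. Cited1 relative to Epcam also had groups apart, with a difference of -0.94 in TPM and -0.60 in CPM. For each of these 3 ratios the two-sided exact permutation test gave p = 0.1, the smallest that 3 libraries against 3 can give, and a Benjamini-Hochberg value of 0.4 over the 12 ratios computed. With a library left out, the Gata3 difference ran from -0.70 (without vehicle replicate 2) to -0.37 (without vehicle replicate 1), that of Cited1 from -1.15 (without agonist replicate 3) to -0.58 (without agonist replicate 1), and that of Elf3 from -0.87 to -0.67. Epcam itself had a log2 fold change of 0.12 ± 0.15 (SE), so part of each difference is that of the reference. Of the 9 pan-epithelial markers, 3 had higher estimates, Epcam among them, and 6 lower. Relative to Krt18, picked after its values were seen, the groups of Elf3 and Gata3 overlapped. Agonist replicate 1 exceeded vehicle replicate 2 in Elf3 (13.6 against 13.3 TPM) and Gata3 (74.7 against 61.0), but had less Krt18 (709 against 741). Other references were not tested. The share of all tested genes with groups apart relative to Epcam was not computed, so these 3 cannot be set against it.

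**Figure D4:**
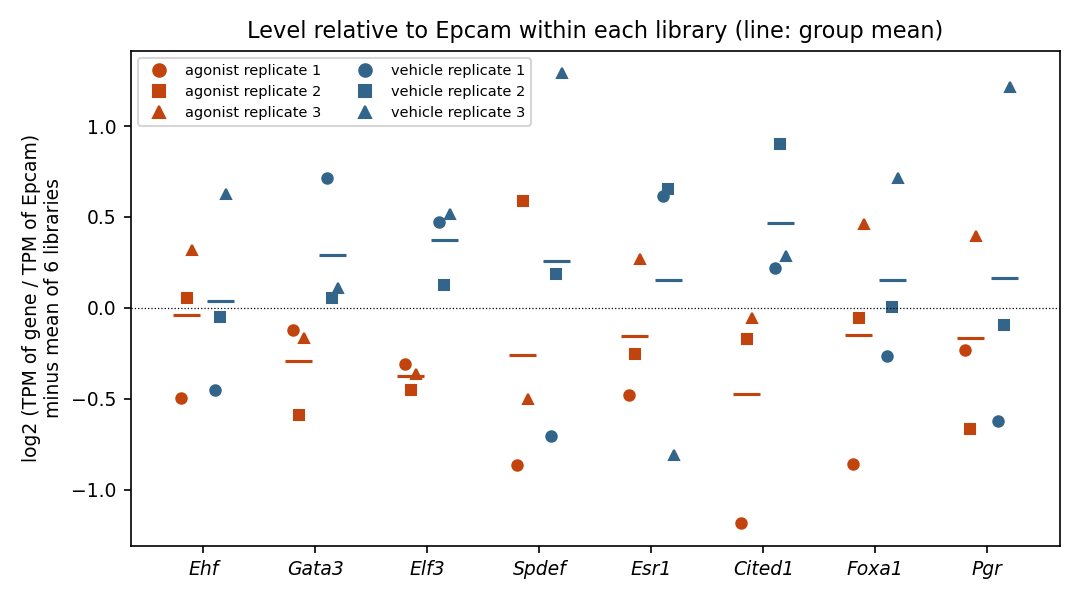
Log2 ratio of the TPM of each gene to that of Epcam in the same library, minus its mean over the 6 libraries, with a line at each group mean. For Elf3, Gata3 and Cited1 the 3 agonist points lie below the 3 vehicle points, and for the other 5 genes the groups overlap. The share of all tested genes with groups apart on this scale was not computed.

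The other 5 ratios to Epcam had overlapping groups, with differences of -0.08 for Ehf, -0.30 for Foxa1, -0.31 for Esr1, -0.34 for Pgr and -0.52 for Spdef (exact permutation p from 0.5 to 0.9). Single libraries set the size of several of these: that of Spdef was -0.00035 without vehicle replicate 3 and -0.996 without vehicle replicate 1, and that of Esr1 was -0.79 without vehicle replicate 3 and -0.06 without vehicle replicate 2. Among the members themselves, Pgr relative to Esr1 differed by -0.03 between the groups (exact permutation p = 1). Its log2 value was -1.13 in vehicle replicate 3 and between -4.39 and -2.91 elsewhere, and without that library the difference was 0.98. Elf3 relative to Ehf differed by -0.66 (p = 0.3, exact permutation test), Cited1 relative to Esr1 by -0.63 (p = 0.3, exact) and Foxa1 relative to Gata3 by 0.28 (p = 0.6, exact), all with overlapping groups. With a library left out, Elf3 relative to Ehf ran from -0.92 (agonist replicate 1) to -0.37 (vehicle replicate 1) and Cited1 relative to Esr1 from -0.99 (vehicle replicate 1) to -0.24 (vehicle replicate 3).

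Of the 17 other transcription factors of luminal epithelium, 17 were tested and 0 passed, with 6 higher and 11 lower estimates and a median log2 fold change of -0.11. The smallest unadjusted p values belonged to the Krüppel-like factor gene Klf5 (35.8 ± 9.39 CPM with agonist, 44.8 ± 1.97 with vehicle; log2 fold change -0.32 ± 0.20), Tfap2a, an AP-2 factor gene (-0.38 ± 0.24), and Cbfb, which encodes the partner of RUNX factors (0.22 ± 0.14). Cbfb was the 1 of 17 with groups that did not overlap, at 85.3 to 89.4 CPM with agonist and 65.8 to 82.7 with vehicle, where 3.02% of tested genes were higher in that way.

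Other nuclear receptors and coregulators had lower estimates for the most part, with 13 of 16 lower, 3 higher, a median of -0.24 and 0 passing the test. Groups did not overlap for 4 of them, all lower with agonist, beside 4.22% of all tested genes. Among them, the coactivator gene Ncoa1 was at -0.30 ± 0.16 and the orphan receptor gene Esrra at -0.26 ± 0.14. Ncoa3 (-0.27 ± 0.15), another coactivator gene of these 4, is named after its values were seen. Esr2, the second oestrogen receptor gene, had 0.22 to 1.11 TPM and is also named after its values were seen.

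Of the 15 response genes of oestrogen and progesterone, 12 were tested, 7 had higher and 5 lower estimates, the median was 0.06 and 0 passed. Id4, a regulator that antagonises helix-loop-helix factors, was at 1.52 ± 0.75, Wnt4 at -0.88 ± 0.55 and the RAS-like gene Rerg at 0.70 ± 0.46, each with overlapping groups. Tff3, a trefoil peptide gene, was listed at 0 TPM in all libraries.

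Among hormone receptor-negative luminal precursor markers, 4 of 6 had lower estimates (median -0.25) and 0 passed. Sox10, a factor of precursor cells, had 224, 421 and 345 CPM with agonist and 804, 429 and 709 with vehicle. The groups did not overlap, though agonist replicate 2 and vehicle replicate 2 nearly met, and in TPM that pair crossed (230 and 195). Its log2 fold change was -0.97 ± 0.31 with an edgeR unadjusted p of 0.0137 and an adjusted p of 0.99, so the size was larger than that of Elf3 and the rank of its p close to it. Aldh1a3, a retinaldehyde dehydrogenase gene, was at -1.06 ± 0.58 and Kit at -0.33 ± 0.34. The pan-epithelial list had 6 of 9 lower estimates and a median of -0.17, with Cldn3 at -0.44 ± 0.22, Krt7 at -0.47 ± 0.30 and Krt18 at -0.17 ± 0.14. The basal list had 9 of 10 higher estimates, with a median of 1.04 and its highest sum (350 TPM) in agonist replicate 3. An edgeR unadjusted p under 0.05 was found for 3 of the 10, all higher with agonist, beside 0.719% of all tested genes. Groups overlapped in CPM for all 10, and each of these 3 was highest in agonist replicate 3. The basal keratin genes and Trp63, which encodes p63, were not among the 3 and are named after their values were seen. They were at 1.19 ± 0.70 (Krt5), 0.50 ± 0.55 (Krt14), -0.19 ± 0.48 (Krt17) and 0.22 ± 0.40 (Trp63).

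The genes whose profile over the 6 libraries was nearest to that of each member, by the mean absolute difference of log2 CPM centred on each gene's mean, were taken from 10654 genes with a mean log2 CPM of at least 3. For Elf3 the nearest was the aldolase gene Aldoa (0.063), and for Gata3 they were Vegfb (0.073) and Cebpb (0.086). Ehf was nearest to Zdhhc2 (0.061), Cited1 to Slc41a1 (0.076), Foxa1 to Sp100 (0.099), Esr1 to Jdp2 (0.121), Spdef to Farp2 (0.152) and Pgr to Tmtc2 (0.197). The distances are small beside the range of a member over the libraries, 1.04 for Elf3 and 2.17 for Pgr, but with 6 points and 10654 candidates some gene will always lie close.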

How the data were processed

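RNA sequencing of 6 mouse mammary tumour libraries was analysed, 3 with agonist and 3 with vehicle, grouped by sample title. For each library the authors deposited expected counts, TPM, FPKM (not used) and other values, the transcript lengths, all from RSEM. Tools and build, per the submitters' processing notes, were STAR 2.7.9a and RSEM 1.3.1 on GRCm38, with cutadapt 3.5, FastQC 0.11.9, R 4.1 and DESeq2 1.36.0. Annotation release, strand setting and read filters were not given in the sources used here. Gene positions come from GENCODE M21 (GRCm38), which held 55141 of 55487 identifiers. The floor of 3 counts covers counting error only.

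Expected counts, 10.1% to 10.5% of them not whole in each library, were rounded and tested with edgeR 4.0.16 (R 4.3.3): TMM, filterByExpr (minimum count 10, total 15), robust quasi-likelihood F test without covariates, Benjamini-Hochberg adjustment over 17396 genes, threshold 0.05. SE is the log2 fold change over the square root of F. CPM use TMM-adjusted totals, except in the floor and the filter cutoff. The script was tested on simulated data. Ratios of TPM were compared by two-sided exact permutation tests. Alternatives were DESeq2 1.42.0 size factors and Wald test, upper-quartile factors, an epithelial offset (Epcam, Cdh1, Krt8, Krt18, Cldn7), 2 other filters, no robust estimation, the replicate block, limma 3.58.1 (voom with quality weights; trend on log2(TPM + 1)), and each library left out. Named genes are the 8 members, Epcam, up to 3 genes of the smallest p in each list, and the 2 nearest profiles a member; a few genes that the rule names are not reported here. The members and lists were chosen with earlier results of these data known.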

Additional observations from a re-analysis of the deposited data

How the results depend on the processing

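Over 16 alternatives no member was called, and the smallest adjusted p of a member was 0.281 (Elf3 by edgeR without vehicle replicate 2). Elf3, Gata3 and Cited1 kept their direction wherever they were fitted. Elf3 had an unadjusted p under 0.05 in 16 of 16 alternatives and Gata3 in 2, the replicate block and the fit without agonist replicate 1. The filter at a CPM of 1 gave no value for Foxa1, Pgr and Cited1, since it left them out. The number of genes called was 0 by edgeR and limma and 5 by the DESeq2 Wald test, none of them a member. Genes at an unadjusted p under 0.05 numbered 538 of 17396 in the main test, 1210 of 17396 by limma-voom and 375 of 17396 by limma-trend. They numbered 847 of 29166 without a low-count filter and 772 of 29069 by DESeq2, where more genes were tested. With a library left out they ran from 315 of 17880 (without agonist replicate 3) to 2442 of 17963 (without vehicle replicate 2). With limma-voom the log2 fold changes of Foxa1 (0.013), Esr1 (0.021) and Ehf (0.15) turned. That of Ehf also turned with the epithelial offset (0.012), the replicate block (0.031) and limma-trend on TPM (0.077). With libraries left out, Foxa1 ran from -0.54 to 0.22, Pgr from -0.87 to 0.28, Ehf from -0.29 to 0.38 and Spdef from -1.02 to 0.13, and the cause was not tested. The ratio differences ran from -0.66 to 0.98 for Pgr to Esr1 (0.058 on log2(TPM + 1)), from -0.14 to 0.72 for Foxa1 to Gata3, and relative to Epcam from -0.61 to 0.051 for Foxa1, -0.73 to 0.19 for Pgr and -0.33 to 0.21 for Ehf.

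Same-numbered libraries of the 2 groups had correlations of their deviations of 0.17, 0.038 and 0.063 for replicates 1, 2 and 3. Libraries of unlike number ran from -0.11 to 0.055, the highest being agonist replicate 2 with vehicle replicate 3. Whether the numbers pair the libraries cannot be told from these values. With the replicate block 0 genes were called and 488 had an unadjusted p under 0.05. Elf3 was then at -0.62, Gata3 at -0.47 and Spdef at -0.40. Low counts add counting error to Cited1, Foxa1 and Pgr, which had between 8 and 91 counts a library. Spdef, with 386 to 1605 counts, had an SE of 0.57, within their range of 0.49 to 0.63. What sets the size of each SE was not tested.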

Other observations

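Agr2, a gene of secretory epithelia placed among the response genes, had 0.76, 32.1 and 2.93 TPM in agonist replicates 1, 2 and 3 and 0.06, 2.01 and 4.6 TPM in the vehicle libraries. Its highest value was in agonist replicate 2, the library with 353 TPM of the salivary gene Dcpp1 and with the highest Greb1 (1.1 TPM). Both genes were singled out after their values were seen, and the part of salivary gland tissue in them was not tested.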
